A study of Mus musculus with 6 samples.

Results

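Transcripts of hepatocyte genes that Wnt signalling maintains around the central vein were followed in bulk liver RNA from Zpbp2 KO and WT mice. The set was given by name as 10 genes: Glul, Oat, Axin2, Lgr5, Tbx3, Slc1a2, Rhbg, Lhpp, Znrf3 and Rnf43. By symbol, 9 of the 10 matched an identifier among the 37991 in the count table. Rhbg, an ammonium transporter gene, did not match and is not analysed here. All 9 passed the filter on low counts, which kept 14686 genes. The tested animals were 3 males that lack Zpbp2, the gene of zona pellucida binding protein 2, on the C57BL/6J background (B6.Zpbp2-/-), and they were set against 3 C57BL/6J WT males. All were 12 weeks old and contributed 1 liver and 1 poly(A)-selected library each, and the labels name no treatment. The sources used here do not state the extent of the Zpbp2 deletion.

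The liver lobule is divided into zones along the flow of blood. Endothelial cells of the central vein secrete Wnt2, Wnt9b and the Wnt amplifier Rspo3, and the hepatocytes next to the vein respond by keeping beta-catenin in the nucleus. These pericentral cells scavenge ammonia as glutamine and carry much of the cytochrome P450 activity, whereas periportal hepatocytes run the urea cycle and gluconeogenesis. The genes followed here include the enzymes and transporters of the pericentral nitrogen programme (Glul, Oat, Slc1a2), the feedback genes by which a cell tunes its own Wnt response (Axin2, Znrf3, Rnf43, Lgr5) and the transcription factor gene Tbx3.

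Total counts were 47821653, 48101737 and 51328826 in Zpbp2 KO replicates 1 to 3 and 51596616, 52955687 and 37904891 in WT replicates 1 to 3. Levels in CPM are counts relative to library sizes scaled by edgeR's trimmed mean of M values (TMM). Zpbp2 itself had 0 counts in each Zpbp2 KO library and 4, 13 and 7 counts in WT replicates 1 to 3, which follows the labels. Hepatocyte markers such as Alb and Apoa1 were abundant in all 6 libraries. Zpbp2 KO replicate 2 stood apart by low markers of Kupffer cells and endothelium. All 8 Kupffer cell markers and 13 of 14 markers of sinusoidal and central vein endothelium were lower there than in any other library. That held for 8 of 12 stellate cell and fibroblast markers, but only 2 of 8 lymphocyte and 1 of 8 cholangiocyte markers. Erythroid markers went the other way, with 0 of 6 lowest there and the highest sum, 359 CPM. The summed Kupffer cell markers came to 146 CPM in Zpbp2 KO replicate 2, to 432 and 468 CPM in Zpbp2 KO replicates 1 and 3, and to 259 to 371 CPM in WT livers. The summed endothelial markers were 186 CPM in that library, 430 and 323 CPM in Zpbp2 KO replicates 1 and 3, and 279 to 392 CPM in WT livers. It also had the highest share of mitochondrial counts, 5.82%, against 4.84% and 4.86% in Zpbp2 KO replicates 3 and 1 and 4.86% to 5.06% in WT libraries, and the lowest TMM factor. Its TMM factor was 0.948, and those of the other 5 libraries were 1.00 to 1.02. A fold change printed here is also given without this library where leaving it out moved the value by over 1.5 times, and for Axin2 and Tbx3.

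None of the 9 genes passed edgeR's quasi-likelihood test after Benjamini-Hochberg adjustment over all tested genes (0 higher and 0 lower). Among all genes 2 passed, 0.0136% of those tested, both lower in Zpbp2 KO livers. At an unadjusted p below 0.05, 2 of the 9 genes, Axin2 and Tbx3, stood lower and 0 stood higher. That threshold was met by 5.79% of all tested genes, 2.93% on the lower side and 2.86% on the higher. Axin2 was also the 1 gene of the 9 whose groups did not overlap, beside 11.6% of all tested genes without overlap, 6.01% lower and 5.56% higher. DESeq2 also called 0 of the 9, with 0.517% of all tested genes called. The median log2 fold change of the 9 was 0.06, with 6 above 0 and 3 below, against a median of 0.01 over all tested genes. In whole liver, fewer cells of a kind and less RNA per cell cannot be told apart.

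**Figure D1:**
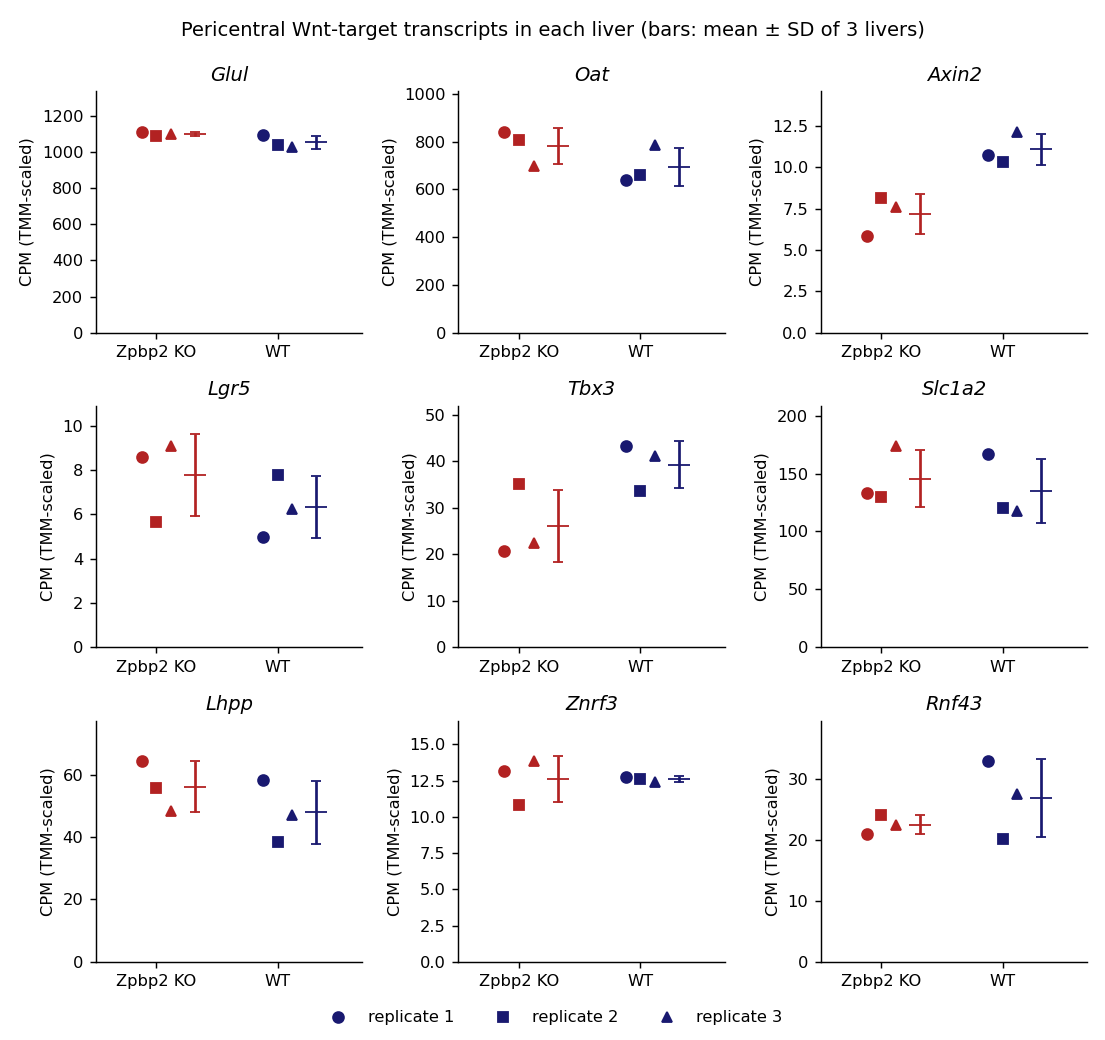
CPM on TMM-scaled library sizes (vertical axes, from 0) in each liver, Zpbp2 KO at the left in red and WT at the right in dark blue, with the marker shape giving the replicate and the bars the mean ± SD of 3 livers. Only in the Axin2 panel do all 3 Zpbp2 KO livers (5.81 to 8.13 CPM) lie below all 3 WT livers (10.3 to 12.2 CPM).

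Axin2 encodes a scaffold of the complex that degrades beta-catenin, and it is itself switched on by Wnt, so that it acts as a brake. It was measured at 5.81, 8.13 and 7.62 CPM in Zpbp2 KO replicates 1 to 3, against 10.8, 10.3 and 12.2 CPM in WT replicates 1 to 3. Each Zpbp2 KO liver was below each WT liver. The group means were 7.19 ± 1.22 CPM in Zpbp2 KO and 11.1 ± 0.959 CPM in WT livers (SD, n = 3 each), a linear ratio of 0.649. The log2 fold change was -0.62 ± 0.162 (SE), with an unadjusted 95% interval of -0.99 to -0.25. With an unadjusted p of 0.00461 by edgeR, Axin2 stood 99th of the 14686 tested genes, and the adjusted p was 0.659. The value lay between -0.72 and -0.49 over 14 alternative settings, with an adjusted p of 0.0875 to 1.00 by edgeR, limma-voom or DESeq2, the lowest being that of DESeq2. Without Zpbp2 KO replicate 2 it was -0.72. The counts behind it were modest, 278 to 398 per library in Zpbp2 KO and 464 to 564 in WT livers.

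The pathway has further brakes, whose difference from Axin2 was not tested. Znrf3 and Rnf43 encode related membrane ubiquitin ligases that remove Frizzled receptors from the cell surface. Znrf3 had 13.2, 10.9 and 13.9 CPM in Zpbp2 KO livers, against 12.8, 12.6 and 12.4 CPM in WT livers. The WT values lay inside the range of the Zpbp2 KO values, and the log2 fold change was 0.00 ± 0.130 with an interval of -0.30 to 0.30. Its sign depended on the scaling, being -0.01 with DESeq2's size factors. Without Zpbp2 KO replicate 2 the log2 fold change of Znrf3 was 0.10. Rnf43 had 20.9, 24.1 and 22.4 CPM in Zpbp2 KO livers, against 32.9, 20.2 and 27.5 CPM in WT livers. The WT livers spread widely around the Zpbp2 KO livers, with the lowest and highest values both from WT, and the log2 fold change was -0.26 ± 0.174 (interval -0.66 to 0.14). Without WT replicate 1, the highest liver, it was -0.09, and without WT replicate 2, the lowest WT liver, it was -0.43, with an unadjusted p of 0.0156 and an adjusted p of 1.00 by edgeR.

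Lgr5 encodes a receptor of R-spondins that shields Frizzled receptors from these ligases, and in liver it marks pericentral hepatocytes. It was measured at 8.62, 5.66 and 9.08 CPM in Zpbp2 KO livers, against 4.98, 7.77 and 6.24 CPM in WT livers. Zpbp2 KO replicates 1 and 3 were above all WT livers and replicate 2 was below 2 of them. The log2 fold change was 0.30 ± 0.233, with an interval of -0.24 to 0.83. Without Zpbp2 KO replicate 2 it was 0.48, with an unadjusted p of 0.0446 and an adjusted p of 0.818 by edgeR, and it was 0.17 without Zpbp2 KO replicate 3, 0.15 without WT replicate 1 and 0.48 without WT replicate 2.

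Tbx3 encodes a T-box repressor that beta-catenin induces in hepatocytes. It had 20.7, 35.0 and 22.4 CPM in Zpbp2 KO replicates 1 to 3, against 43.2, 33.5 and 41.1 CPM in WT replicates 1 to 3. Zpbp2 KO replicates 1 and 3 were far below the WT livers, and replicate 2 was slightly above the lowest WT liver, so the groups overlapped. The means were 26.0 ± 7.83 CPM in Zpbp2 KO and 39.3 ± 5.12 CPM in WT livers (SD, n = 3 each). The log2 fold change was -0.59 ± 0.204 (interval -1.06 to -0.13), with an unadjusted p of 0.0190 and an adjusted p of 0.798 by edgeR. Without Zpbp2 KO replicate 2, the library low in Kupffer cell and endothelial markers, it was -0.87, with an adjusted p of 0.274. The part of those cells in the Tbx3 values was not tested. Tbx3os1, a transcript antisense to Tbx3, had 10 to 23 counts in Zpbp2 KO and 9 to 14 in WT libraries, beside Tbx3 counts of 992 to 1598 in Zpbp2 KO and 1569 to 2267 in WT libraries.

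The nitrogen genes were abundant and their groups overlapped. Glul encodes glutamine synthetase, which joins ammonium to glutamate in the hepatocytes next to the central vein. It was measured at 1116, 1091 and 1102 CPM in Zpbp2 KO livers, against 1096, 1042 and 1029 CPM in WT livers. Both groups were tight, with a coefficient of variation of 1.13% in Zpbp2 KO and 3.38% in WT livers. The log2 fold change of 0.06 ± 0.0877 had an interval of -0.14 to 0.26, the narrowest of the 9, and was 0.03 without WT replicate 3. Oat encodes ornithine aminotransferase, the mitochondrial enzyme that turns ornithine toward glutamate. It had 843, 808 and 699 CPM in Zpbp2 KO livers, against 639, 662 and 787 CPM in WT livers. Zpbp2 KO replicates 1 and 2 were above all WT livers and replicate 3 was below the highest WT liver (log2 fold change 0.17 ± 0.120, interval -0.10 to 0.45, and 0.11 without WT replicate 1).

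Slc1a2 encodes GLT-1, a glutamate transporter best known from astrocytes that brings glutamate into pericentral hepatocytes. It had 133, 130 and 174 CPM in Zpbp2 KO livers, against 167, 120 and 117 CPM in WT livers. One liver of each genotype was high, Zpbp2 KO replicate 3 and WT replicate 1, and the log2 fold change was 0.11 ± 0.170 (interval -0.28 to 0.50). With a liver left out it lay between -0.03, without Zpbp2 KO replicate 3, and 0.30, without WT replicate 1, and without Zpbp2 KO replicate 2 it was 0.19. Lhpp encodes a protein histidine phosphatase, and it lies next to Oat on chromosome 7, with 2 further identifiers of the table between them and 0 tested genes. It had 64.4, 55.8 and 48.3 CPM in Zpbp2 KO livers, against 58.4, 38.3 and 47.0 CPM in WT livers. The groups overlapped, with a log2 fold change of 0.23 ± 0.170 (interval -0.16 to 0.62). It was 0.12 without Zpbp2 KO replicate 1, 0.09 without WT replicate 2 and 0.40 without WT replicate 1, where the unadjusted p was 0.0383 and the adjusted p 0.789 by edgeR. Among Zpbp2 KO livers replicate 1 was the highest and replicate 3 the lowest for both Oat and Lhpp, but among WT livers the highest was replicate 3 for Oat and replicate 1 for Lhpp.

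**Figure D2:**
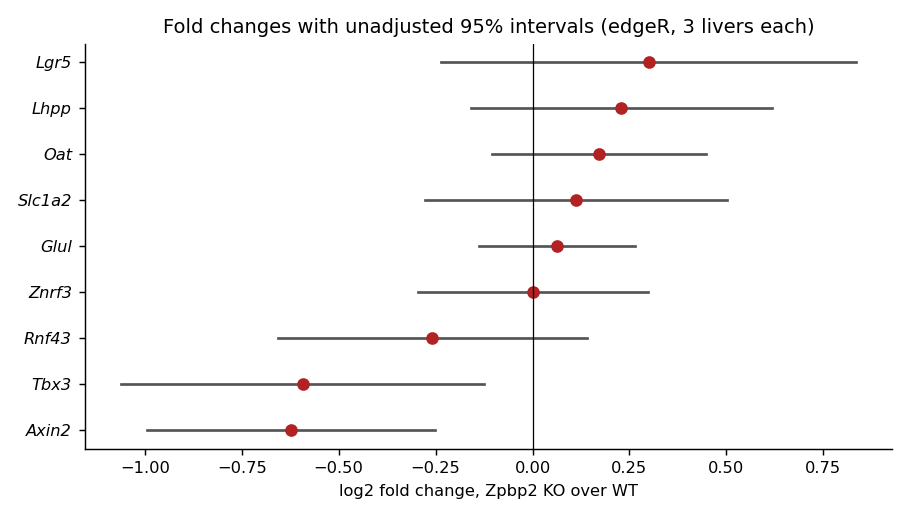
Log2 fold change of each gene, Zpbp2 KO over WT (horizontal axis), with points for the edgeR estimate and lines for its unadjusted 95% interval. The intervals of Axin2 (-0.99 to -0.25) and Tbx3 (-1.06 to -0.13) lie below 0, and the other 7 cover 0.

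Per length, the set spanned a wide range of levels. Levels in CPM per kb of exon put Oat at 332 ± 31.7 and Glul at 332 ± 3.76 in Zpbp2 KO livers, and Glul at 318 ± 10.7 and Oat at 295 ± 33.8 in WT livers (SD, n = 3 each). These neighbours did not differ beyond their spread in either genotype. In WT livers Glul ranked 137th by this level among the 14244 tested genes with an annotated exon length. Lhpp followed at 23.3 ± 3.33 CPM per kb in Zpbp2 KO and 19.8 ± 4.16 in WT livers. Slc1a2 came next at 11.1 ± 1.86 CPM per kb in Zpbp2 KO and 10.3 ± 2.11 in WT livers, below every liver's Lhpp level. Tbx3 stood at 3.93 ± 1.18 CPM per kb in Zpbp2 KO and 5.93 ± 0.773 in WT livers, and Rnf43 at 3.42 ± 0.241 in Zpbp2 KO and 4.10 ± 0.976 in WT livers. Tbx3 and Rnf43 overlapped in Zpbp2 KO livers. In WT livers the lowest Tbx3 level, 5.06, was just above the highest Rnf43 level, 5.02.

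The 3 feedback genes of low abundance closed the order. In WT livers Axin2, at 2.01 ± 0.174 CPM per kb, was above Znrf3, at 1.60 ± 0.0225 (SD, n = 3). In Zpbp2 KO livers Znrf3, at 1.60 ± 0.200 CPM per kb, had a mean above that of Axin2, at 1.31 ± 0.222, with overlap. Axin2 exceeded Znrf3 in replicate 2 of the Zpbp2 KO livers and in all 3 WT livers. Lgr5 had the lowest level, 0.758 ± 0.181 CPM per kb in Zpbp2 KO and 0.617 ± 0.136 in WT livers. The length is that of all annotated exons of a gene joined, 10264 bases for Lgr5 and 5506 for Axin2. Without division by length, Lgr5 averaged 7.78 CPM and Axin2 7.19 CPM in Zpbp2 KO livers. In WT livers the means were 6.33 CPM for Lgr5 and 11.1 CPM for Axin2. The last place of Lgr5 in Zpbp2 KO livers thus rests on the length used.

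**Figure D3:**
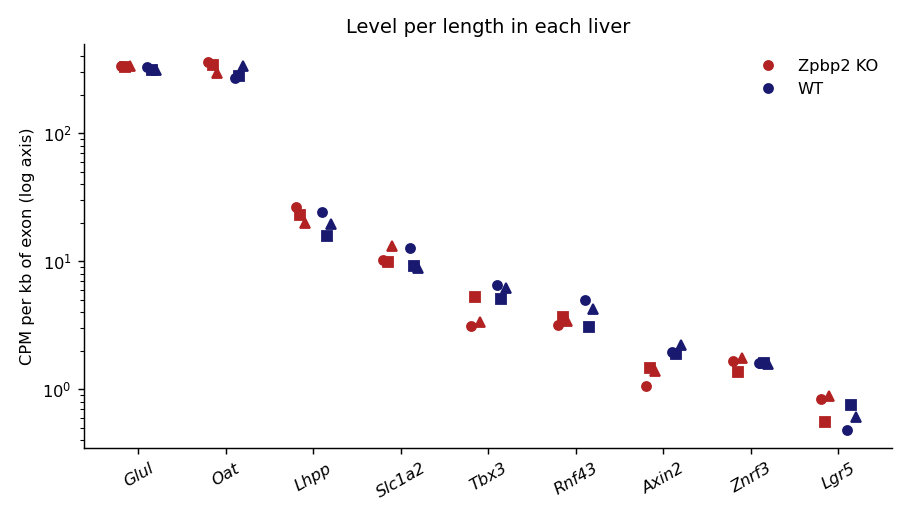
CPM per kb of exon (log axis) for each gene, ordered by its WT mean, with Zpbp2 KO livers in red at the left, WT livers in dark blue at the right and the marker shape giving the replicate. Glul and Oat lie between 271 and 357 in all livers, and the points of Axin2 are the 1 set in which the genotypes separate.

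Promoter sequence is shown for Axin2, whose level stood lower, for Glul, whose groups overlapped, and for Slc1a2, which held the motif searched. RefSeq windows (build GRCm38.p6) were at hand for 5 of the 10 genes, and the 250 bases before each annotated start were searched on both strands for the TCF/LEF consensus, spelled as the heptamer AACAAAG, the heptamer ATCAAAG, the heptamer TACAAAG or the heptamer TTCAAAG. Of 32851 such windows over all genes, 14.8% held a match and 3.21% held ATCAAAG or its reverse complement. Of the 6 windows of Axin2, Glul, Oat, Rnf43 (2 starts) and Slc1a2, 1 held a match. It was ATCAAAG in the Slc1a2 window, 207 bases before an annotated start, and is in capitals below.
Axin2, chr11:108920099-108920348, plus strand: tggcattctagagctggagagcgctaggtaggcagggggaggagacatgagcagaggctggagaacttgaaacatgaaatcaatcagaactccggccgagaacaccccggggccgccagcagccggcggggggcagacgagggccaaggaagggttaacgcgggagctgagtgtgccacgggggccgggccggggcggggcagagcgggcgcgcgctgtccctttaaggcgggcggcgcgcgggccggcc
Glul, chr1:153899679-153899928, plus strand: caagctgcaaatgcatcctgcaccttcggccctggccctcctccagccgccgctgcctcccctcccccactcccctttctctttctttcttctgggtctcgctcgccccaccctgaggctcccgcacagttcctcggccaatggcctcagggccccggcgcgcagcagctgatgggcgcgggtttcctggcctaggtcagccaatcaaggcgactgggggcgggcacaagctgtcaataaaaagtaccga
Slc1a2, chr2:102706188-102706437, plus strand: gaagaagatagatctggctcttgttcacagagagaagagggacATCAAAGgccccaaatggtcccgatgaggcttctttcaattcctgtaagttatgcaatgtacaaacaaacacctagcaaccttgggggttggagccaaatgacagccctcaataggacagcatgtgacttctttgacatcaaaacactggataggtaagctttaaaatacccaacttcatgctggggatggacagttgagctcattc
The Axin2 window was 69.2% G and C, the Glul window 64.8% and the Slc1a2 window 44.8%. No match says only that these letters are absent from the window, and a match is a description and not a binding site.

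**Figure D4:**
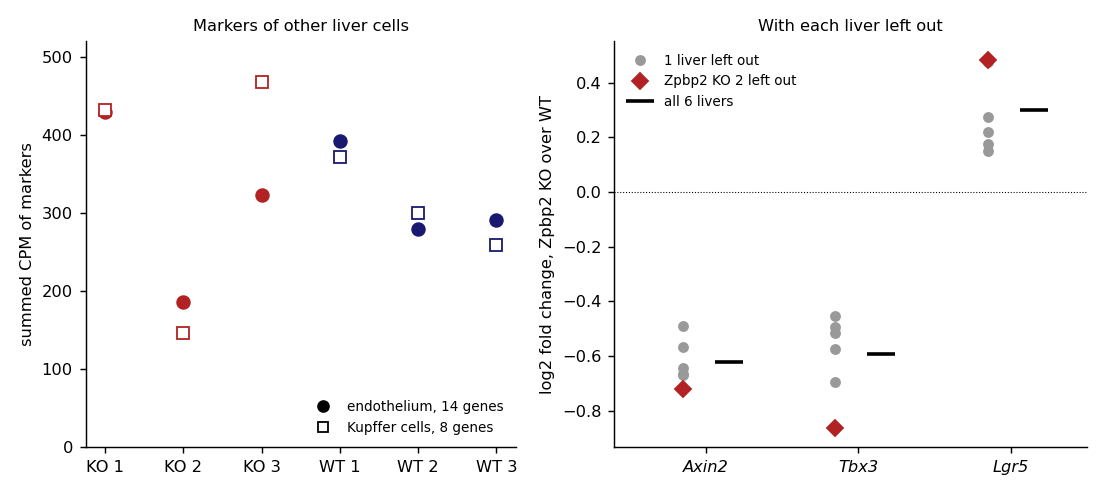
Left, summed CPM of 14 endothelial markers (filled circles) and 8 Kupffer cell markers (open squares) in each library, Zpbp2 KO in red and WT in dark blue, where Zpbp2 KO replicate 2 is lowest in both. Right, log2 fold change, Zpbp2 KO over WT, of Axin2, Tbx3 and Lgr5 with all livers (bar) and with each liver left out (points). Without Zpbp2 KO replicate 2 (red diamonds) the values were -0.72, -0.87 and 0.48, the farthest from 0 for each of these genes. For Glul, Oat, Slc1a2, Lhpp and Rnf43, not shown, the farthest value came with a WT liver left out.

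Upstream of these genes, the ligands that set pericentral identity overlapped between genotypes. They were picked for their role, not for their values. Rspo3 averaged 5.11 ± 0.784 CPM in Zpbp2 KO and 5.77 ± 0.474 CPM in WT livers, Wnt2 3.15 ± 1.90 CPM in Zpbp2 KO and 2.93 ± 0.714 CPM in WT livers, and Wnt9b 1.56 ± 0.530 CPM in Zpbp2 KO and 1.34 ± 0.198 CPM in WT livers (SD, n = 3 each). In Zpbp2 KO replicate 2, the library low in endothelial markers, Wnt2 was 1.73 CPM, the lowest of all livers. Rspo3, at 5.28 CPM, and Wnt9b, at 1.71 CPM, were not lowest in that library. Of 43 listed ligands, receptors and secreted regulators, 28 were tested and 0 were called by edgeR. Their median log2 fold change was -0.05, with 10 above 0 and 18 below, where 52.9% of all tested genes lay above 0. At an unadjusted p below 0.05 there were 3 lower and 1 higher, beside 2.93% and 2.86% of all tested genes.

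The 3 on the lower side were Frizzled genes, which encode the seven-pass receptors for Wnt. Fzd7 had 21.8, 19.6 and 21.7 CPM in Zpbp2 KO livers, against 31.3, 28.2 and 39.4 CPM in WT livers. Its groups did not overlap, its log2 fold change was -0.65 ± 0.139, and the adjusted p was 0.475 by edgeR and 0.0215 by DESeq2, the 1 call that DESeq2 made on this list. Fzd6 had 6.23, 4.19 and 6.55 CPM in Zpbp2 KO livers, against 6.77, 10.2 and 9.59 CPM in WT livers, also without overlap (-0.65 ± 0.226, adjusted p = 0.798 by edgeR). Fzd5, named after its values were seen, had 7.32, 6.18 and 11.1 CPM in Zpbp2 KO livers, against 11.5, 11.4 and 12.9 CPM in WT livers (-0.54 ± 0.214). Of the 28 tested genes of the list, 4 stood lower and 1 higher without overlap, beside 6.01% and 5.56% of all tested genes. The sign was not shared by all Frizzled genes, and Fzd8, also named after its values were seen, averaged 18.1 ± 6.03 CPM in Zpbp2 KO and 12.3 ± 2.67 CPM in WT livers (0.57 ± 0.252, with overlap). Rspo1, an R-spondin gene near the limit of detection, was the gene on the higher side, at 0.531 ± 0.173 CPM in Zpbp2 KO and 0.287 ± 0.0246 CPM in WT livers (0.89 ± 0.339, adjusted p = 0.798 by edgeR).

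Downstream of the receptors, the destruction complex and the nuclear effectors of beta-catenin had small values. Of 30 listed genes 29 were tested, with 0 called and 0 at an unadjusted p below 0.05 by edgeR. Their median was -0.04, with 8 above 0 and 21 below, where 52.9% of all tested genes lay above 0. Ctnnb1, which encodes beta-catenin, averaged 229 ± 21.5 CPM in Zpbp2 KO and 245 ± 11.9 CPM in WT livers. The smallest p-values were those of the coactivator gene Bcl9l (-0.24 ± 0.127), the tankyrase gene Tnks2 (-0.21 ± 0.115) and the ubiquitin ligase subunit gene Fbxw11 (-0.19 ± 0.105). Other feedback targets of the pathway lay close to 0. Of 12 listed, 9 were tested, with 0 called, 0 at an unadjusted p below 0.05 and a median of 0.02. Among the 9, 8 lay above 0 and 1 below. Notum, which encodes a secreted Wnt deacylase, averaged 38.7 ± 7.53 CPM in Zpbp2 KO and 38.2 ± 0.811 CPM in WT livers, and Nkd1, an inhibitor of Dishevelled, 6.48 ± 1.34 CPM in Zpbp2 KO and 6.44 ± 0.501 CPM in WT livers. The zinc finger gene Sp5, a direct Wnt target, averaged 2.92 ± 0.244 CPM in Zpbp2 KO and 2.89 ± 0.193 CPM in WT livers. These 3 were picked for their role. The smallest p-values on the list belonged to Nkd2 (-0.18 ± 0.545), the Dickkopf gene Dkk4 (0.12 ± 0.509) and the transcription factor gene Tcf7 (0.03 ± 0.209). Without Zpbp2 KO replicate 2, Nkd2 was 0.09, Dkk4 -0.17 and Tcf7 0.14.

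**Figure D5:**
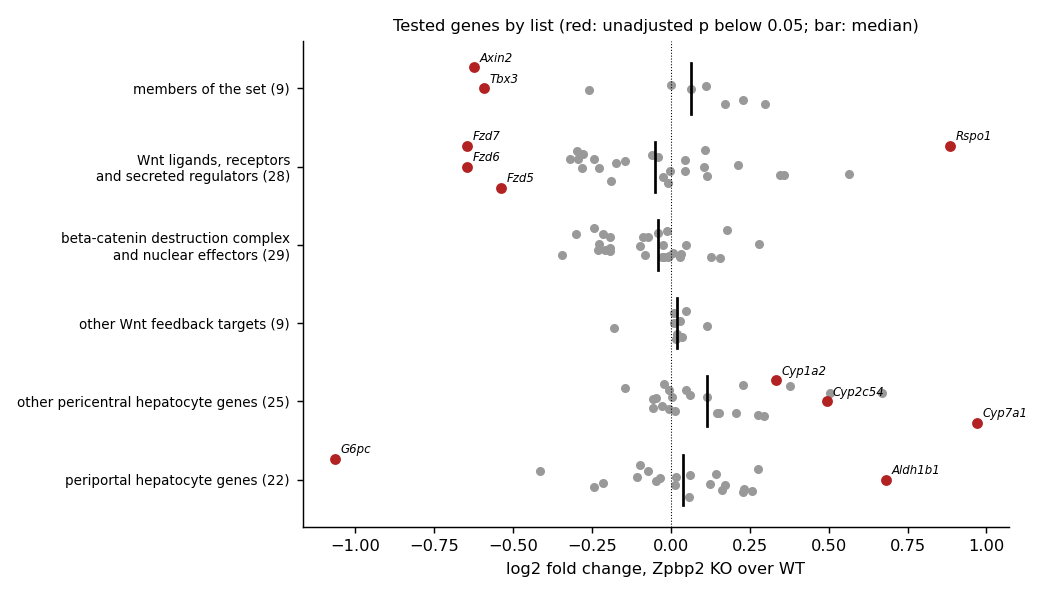
Log2 fold change, Zpbp2 KO over WT (horizontal axis), of each tested gene in the set and 5 lists, with the number tested in brackets, a bar at the median and red, named points at an unadjusted p below 0.05. The medians lie between -0.05 and 0.12, and the red points of the set and of the ligand and receptor list are Axin2, Tbx3, Fzd5, Fzd6 and Fzd7 on the lower side and Rspo1 on the higher side.

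All 25 listed pericentral genes outside the set were tested, with 0 called by edgeR and a median of 0.12. Of these 68% lay above 0, beside 52.9% of all tested genes and 7 of 8 hepatocyte markers. An unadjusted p below 0.05 was met by 3 on the higher side and 0 on the lower, beside 2.86% and 2.93% of all tested genes. Without overlap, 3 of the 25 stood higher and 0 lower, beside 5.56% and 6.01% of all tested genes. Cyp2c54, which encodes a cytochrome P450 of fatty acid epoxidation, had 271, 251 and 227 CPM in Zpbp2 KO livers, against 162, 170 and 201 CPM in WT livers, without overlap (0.49 ± 0.117, adjusted p = 0.552 by edgeR). Cyp1a2, a drug-metabolizing P450 gene, averaged 765 ± 81.7 CPM in Zpbp2 KO and 608 ± 52.2 CPM in WT livers (0.33 ± 0.115), and Cyp7a1, whose enzyme limits the rate at which bile acids are made, 110 ± 58.9 CPM in Zpbp2 KO and 56.3 ± 16.0 CPM in WT livers (0.97 ± 0.359). The highest Cyp7a1 value, 176 CPM, was that of Zpbp2 KO replicate 2, and without that library the log2 fold change was 0.46, with an unadjusted p of 0.108 by edgeR. Reads of near-identical Cyp2c genes may have been split or dropped in counting, so Cyp2c54 is less certain. Periportal genes had a median of 0.04 over 22 tested, with 0 called and 13 above 0. Aldh1b1, a mitochondrial aldehyde dehydrogenase gene, averaged 83.5 ± 16.9 CPM in Zpbp2 KO and 52.1 ± 14.5 CPM in WT livers (0.68 ± 0.221), the gluconeogenic G6pc 424 ± 316 CPM in Zpbp2 KO and 887 ± 172 CPM in WT livers (-1.07 ± 0.450), and the urea cycle gene Ass1 3547 ± 334 CPM in Zpbp2 KO and 3028 ± 146 CPM in WT livers (0.23 ± 0.109). G6pc had 785 CPM in Zpbp2 KO replicate 2 and 288 and 198 CPM in Zpbp2 KO replicates 1 and 3, so that its log2 fold change without replicate 2 was -1.87, with an adjusted p of 0.107 by edgeR. Ass1 was 0.15 without Zpbp2 KO replicate 1.

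Genes that handle glutamine, ornithine and ammonium beside Glul, Oat and Slc1a2 had a median of 0.02 over 23 tested of 26, with 0 called by edgeR. Without overlap, 2 of the 23 stood higher and 1 lower, beside 5.56% and 6.01% of all tested genes. Slc38a2, an amino acid transporter gene, had 116, 128 and 149 CPM in Zpbp2 KO livers, against 213, 163 and 152 CPM in WT livers, without overlap (-0.42 ± 0.151, adjusted p = 0.798 by edgeR). Prodh, which encodes proline dehydrogenase, averaged 160 ± 18.0 CPM in Zpbp2 KO and 133 ± 7.78 CPM in WT livers (0.27 ± 0.109), and Slc38a3, a glutamine transporter gene, 1877 ± 352 CPM in Zpbp2 KO and 1517 ± 122 CPM in WT livers (0.31 ± 0.147). Slc38a2 was -0.26 without WT replicate 1, and Slc38a3 was 0.16 without Zpbp2 KO replicate 3. Rhag and Rhcg, the ammonium transporter genes on the list, had 0 counts in all 6 libraries.

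Markers of other cells were measured beside these lists, with 0 called by edgeR on any of them. Medians were -0.07 for 14 endothelial markers, -0.08 for 12 stellate cell and fibroblast markers, 0.07 for 7 cholangiocyte markers, 0.11 for 8 Kupffer cell markers, 0.37 for 8 lymphocyte markers, 1.21 for 5 erythroid markers and 0.13 for 8 hepatocyte markers. Genes among the 2 smallest p-values of each list were Cdh13 (-0.30 ± 0.247) and Lyve1 (0.18 ± 0.343) for endothelium, Hgf (-0.60 ± 0.292) and Col1a1 (0.37 ± 0.188) for stellate cells, and Krt19 (0.23 ± 0.198) for cholangiocytes. They were Cd5l (0.28 ± 0.410) and Clec4f (0.18 ± 0.320) for Kupffer cells, Cd8a (0.58 ± 0.499) for lymphocytes, Hbb-bs (1.29 ± 0.545) and Hba-a2 (1.29 ± 0.554) for erythroid cells, and Apoa1 (0.29 ± 0.143) and Apob (-0.33 ± 0.168) for hepatocytes. Without Zpbp2 KO replicate 2 the values were -0.12 for Cdh13, 0.48 for Lyve1, -0.34 for Hgf, 0.67 for Cd5l, 0.51 for Clec4f and 0.17 for Apoa1. The part of such cells in the Axin2 and Fzd7 values was not tested.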

How the data were processed

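Liver RNA of 3 Zpbp2 KO and 3 WT mice was sequenced as poly(A)-selected directional libraries, per the labels' protocols. The authors deposited counts, whole numbers per Ensembl gene and library not normalized. The programs STAR, Picard and HTSeq and the build mm9 are named per the submitters' processing notes; versions, annotation and strand setting are not given in the sources here. Columns were matched to samples by title. Of 37991 IDs, 32919 took a symbol from GENCODE M21 or RefSeq (GRCm38), by Ensembl ID. Exon lengths, gene order and chromosomes came from GENCODE M21. Each length joins all annotated exons of a gene and can exceed that of its transcripts, so levels per kb and their order are approximate. Coordinates are printed only for the RefSeq promoter windows.

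Genes were kept by filterByExpr (minimum count 10) and scaled by TMM. edgeR 4.0.16 in R 4.3.3 compared Zpbp2 KO with WT over all 14686 genes with the quasi-likelihood F-test, two-sided, with no covariate, and a gene was called at a Benjamini-Hochberg adjusted p below 0.05. Each log2 fold change sets Zpbp2 KO over WT and stands with the SE implied by the test. The tests were run on simulated counts with known changes, whose outcome is not reported here. No simulated library had shifted cell markers like those of Zpbp2 KO replicate 2. Alternatives were DESeq2 1.42.0, limma-voom (limma 3.58.1), other scalings and filters, a replicate block, removal of length and GC trends, and each liver left out.

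The genes and lists were chosen with earlier results of these data known. Named genes are the set, the 3 smallest p-values of each pathway list with none called, the 2 smallest of each cell marker list, and for Glul and Axin2 the 3 genes of most similar profile; others are stated, and some genes that this rule picks are not reported here. Averaged over the tested genes, pairs of livers of 1 group differed by a chi-square of 19.9 to 102 per gene, beyond counting error alone. Abundant genes weigh most in this average. The part of counting error in the spread of genes with few counts, such as Rspo1, was not tested. The labels count 3 animals of each genotype. The p-values set the difference between groups against the spread between livers, moderated over the tested genes.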

Additional observations from a re-analysis of the deposited data

How the results depend on the processing

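With all 14 alternatives, 0 of the 9 genes were called in either direction. Of 41 genes followed through them, 33 never changed sign, Axin2, Tbx3, Rnf43, Glul, Oat, Lgr5 and Lhpp among them. At an unadjusted p below 0.05 by edgeR the count of lower genes of the 9 was 1 instead of 2 with length and GC trends removed and without Zpbp2 KO replicate 1, Zpbp2 KO replicate 3 or WT replicate 1, Tbx3 being the gene lost, and 3 without WT replicate 2, where Rnf43 joined. The count of higher genes was 1 instead of 0 without Zpbp2 KO replicate 2 (Lgr5) and without WT replicate 1 (Lhpp). Over all genes DESeq2 called 27 higher and 49 lower and an edgeR fit without a filter 3 higher and 9 lower, against 0 and 2, and with each liver left out edgeR called 0 higher and 1 to 4 lower. On the ligand and receptor list DESeq2 called 1 gene lower, Fzd7 (-0.6569). The log2 fold change of Znrf3 was -0.0087 with DESeq2's size factors, -0.0276 with library totals, -0.0085 with DESeq2, -0.0037 with limma-voom and -0.0063 with the replicate block, and -0.0716 to 0.0990 with each liver left out. Tcf7 was -0.0008 with library totals and -0.0320 with length and GC trends removed, and Dkk4 was -0.0095 in the second of these. With each liver left out, Slc1a2 gave -0.0336 to 0.2954, Tcf7 -0.1803 to 0.1408, Dkk4 -0.2814 to 0.6768, Nkd2 -1.098 to 0.1619, Cd5l -0.0101 to 0.6657, Clec4f -0.0561 to 0.5114 and Lyve1 -0.0827 to 0.4769. The cause was not tested.

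Same-numbered livers had correlations of deviations of 0.142, 0.197 and -0.237, and different-numbered livers -0.323 to 0.232. With 3 livers in each group these values cannot decide whether the replicate numbers pair the livers. With the replicate block Axin2 was -0.63 (adjusted p = 0.697 by edgeR), and the block moved no count of calls. The least deep of the 9 were Lgr5, Axin2 and Znrf3, with 238 to 724 counts a library.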

Other observations

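The tested genes whose profile over the 6 livers was nearest to that of Axin2, by the root mean square difference of deviations from each gene's mean log2 CPM, were Tmem267 (0.0809), Aph1c (0.103) and Yod1 (0.105). Aph1c encodes a subunit of gamma-secretase and Yod1 a deubiquitinase. Tmem267 averaged 4.02 CPM in Zpbp2 KO and 6.51 CPM in WT livers, and Yod1 7.67 CPM in Zpbp2 KO and 11.1 CPM in WT livers. Within the set the gene nearest to Axin2 was Tbx3 (0.186). The nearest to Glul were Csnk1g2 (0.0118), the pseudogene Ube2d-ps (0.0196) and Dars (0.0224), which encode in turn a casein kinase, no protein and an aspartyl-tRNA synthetase. These are descriptions over 6 livers, and each profile includes the difference between genotypes. The log2 fold changes were -0.70 for Tmem267, -0.62 for Aph1c and -0.53 for Yod1, beside -0.62 for Axin2 and -0.59 for Tbx3.

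Axin2, Rnf43 and Znrf3 share chromosome 11 with Zpbp2. In GENCODE M21, 165 tested genes lie between Axin2 and Zpbp2, 120 between Rnf43 and Zpbp2 and 813 between Znrf3 and Zpbp2.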
